A study of Homo sapiens with 6 samples.

Results

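The genes described here are 42 genes of the lysosome in human MIA PaCa-2 cells, taken by symbol from a count table of 60604 genes. They comprise 17 subunits of the vacuolar proton pump (V-ATPase), 9 genes of the lysosomal membrane and of cholesterol export, and 16 lysosomal enzymes with their activators, and they leave out the cathepsin proteases. RNA was sequenced from 3 libraries of cells given BP (black phosphorus, a nanomaterial) at 12.5 µg/ml and from 3 libraries of cells given the same dose of BP together with Huaier, a preparation of a medicinal fungus, at 10 mg/ml. MIA PaCa-2 is an established pancreatic carcinoma line, labelled wild type, so all 6 libraries come from 1 line and all 6 carry BP. Cells without BP, or with Huaier alone, were not analysed here, and the sources used here give no treatment time. The comparison asks what Huaier changed in cells that also received BP, in a study whose title names mitophagy and autophagy. The labels do not say whether the libraries of a group were separate cultures, so p-values measure only a spread between libraries that may be technical.

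The lysosome is the acidic compartment in which material delivered by autophagy and endocytosis is broken down. The V-ATPase keeps it acidic: its V1 sector in the cytosol hydrolyses ATP and turns a rotor, and its V0 sector in the membrane carries protons across on a ring of small proteolipid subunits. Soluble hydrolases digest lipids, glycans and proteins at low pH, while membrane proteins export the products, shield the membrane and conduct ions. Many of these genes are known targets of TFEB and TFE3, transcription factors that bind an E-box within a longer palindrome (the CLEAR element) in promoters of lysosomal genes.

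The E-box was looked up in the promoters of the listed genes, which RefSeq (GRCh38.p14) gives as 250 bases before to 50 bases after each start. Of the 42 genes 30 had an entry. The E-box CACGTG, which reads the same on both strands, lay in a promoter of 10 of these 30 genes (33.3%), and in 12.48% of 10830 tested genes with an entry and 7.26% of all 35116 promoters. The longer form TCACGTGA, also the same on both strands and containing the E-box, lay in a promoter of 5 of the 30 genes (16.7%), and in 2.19% of tested genes and 0.98% of all promoters. The stretches printed here are those of the genes that rose with Huaier and hold an E-box (ATP6V0B and NEU1), of the gene with the most E-boxes (LAMP1), and of 4 other genes with the longer form, none of which passed the test. Each is written 5′ to 3′ on the strand of its gene, with E-boxes in capitals.
ATP6V0B: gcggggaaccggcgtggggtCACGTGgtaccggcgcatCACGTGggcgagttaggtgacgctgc
NEU1: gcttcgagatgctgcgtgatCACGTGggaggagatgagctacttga
LAMP1: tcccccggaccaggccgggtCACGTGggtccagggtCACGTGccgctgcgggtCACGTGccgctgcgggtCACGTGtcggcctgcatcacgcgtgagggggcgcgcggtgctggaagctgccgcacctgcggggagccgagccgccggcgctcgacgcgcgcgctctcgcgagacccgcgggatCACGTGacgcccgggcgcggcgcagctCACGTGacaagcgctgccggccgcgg
GAA: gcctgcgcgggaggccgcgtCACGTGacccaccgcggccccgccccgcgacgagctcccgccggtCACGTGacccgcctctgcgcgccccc
MCOLN1: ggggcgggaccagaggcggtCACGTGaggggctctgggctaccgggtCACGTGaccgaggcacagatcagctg
ATP6V0D1: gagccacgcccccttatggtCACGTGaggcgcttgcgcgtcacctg
ATP6V1G1: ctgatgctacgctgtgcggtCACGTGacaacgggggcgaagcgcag

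The stretch of ATP6V0B is chr1:43974883-43974946 (plus strand) and that of NEU1 is chr6:31862922-31862967 (minus strand). The stretch of LAMP1 is chr13:113297027-113297263 (plus strand), that of GAA is chr17:80101485-80101575 (plus strand) and that of MCOLN1 is chr19:7522563-7522635 (plus strand). The stretch of ATP6V0D1 is chr16:67481191-67481236 (minus strand) and that of ATP6V1G1 is chr9:114587691-114587736 (plus strand). LAMP1 held 6 E-boxes starting between positions -192 and -1 from its start, of which the 2 nearest the start were of the longer form. GAA and MCOLN1 each held a pair of the longer form, and ATP6V0B held a pair of E-boxes at -57 and -39. The genes that passed the test below and had an entry without CACGTG were NPC1, NPC2, GLA, ATP6V1F, ATP6AP1 and TPCN1. The median log2 fold change with Huaier, in the main fit described below, was 0.43 for the 10 genes with an E-box and 0.16 for the other genes with an entry. This difference was not tested, and it was not set against other tested genes with and without an E-box. The fold changes of single genes depend on scaling: the 10 genes with an E-box ran from 0.08 (MCOLN1) to 0.87 (NEU1) in the main fit. With libraries scaled by their size alone they ran from -0.19 (MCOLN1) to 0.59 (NEU1). With a dependence on GC content and length taken out of each library, they ran from -0.29 (MCOLN1) to 0.75 (NEU1). The difference in medians was not computed in these other fits. A match of these letters describes the sequence and does not show that a factor binds there.

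**Figure D1:**
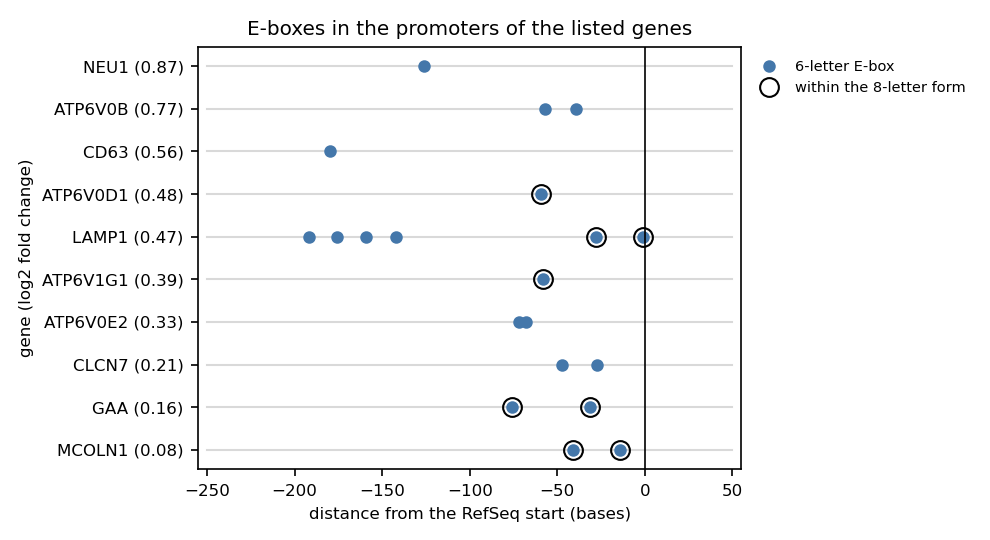
Positions of E-boxes in the promoters of the 10 listed genes that hold any, as distance in bases from the RefSeq start, with the log2 fold change of each gene (BP+Huaier over BP) beside its name; rings mark E-boxes within the longer form. LAMP1 has 6 E-boxes, the 2 points of ATP6V0E2 come from different listed starts, and GAA and MCOLN1, with log2 fold changes of 0.16 and 0.08, hold the longer form.

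The libraries held 15657593 to 17036565 counts on genes, and 3 counts amounted to 0.160 to 0.222 CPM (counts-per-million, with library sizes scaled by TMM factors). BP+Huaier 3 stood apart from BP+Huaier 1 and 2: its score on the leading principal component, which held 72.4% of the variance, was 11.5, against 65.1 and 66 for those libraries and -50.5 to -43.4 for BP. Libraries also differed with the GC content of transcripts, the correlation across genes of GC content with the difference in log2 CPM from the mean of the (other) BP libraries being 0.39, 0.27 and 0.03 in BP+Huaier 1, 2 and 3 and -0.44 to 0.42 in the BP libraries. Of the markers of the line, KRT8, KRT18 and VIM were expressed, KRT18 at 450.5 ± 14.1 CPM with BP and 771 ± 251 CPM with BP+Huaier (called higher, edgeR adjusted p = 0.037), and EPCAM was at most 0.266 CPM, and CDKN2A, which this line has lost, had 0 counts in every library. Of 7 markers of macrophages and leukocytes, cells rich in lysosomes, 6 stayed under 1 CPM in every library, with PTPRC, MS4A7 and CD163 at 0 counts, and the list summed to 40.9 to 45.9 CPM with BP and 21.2 to 34.3 CPM with BP+Huaier, nearly all from CD14. Of 5 fibroblast markers 3 stayed under 1 CPM, with DCN and LUM at 0, and the sum was 495 to 550.5 CPM with BP and 379 to 483 CPM with BP+Huaier. COL1A2, which gave nearly all of this sum, was not called (log2 fold change -0.27 ± 0.15, edgeR adjusted p = 0.19), and COL1A1, at 1.34 ± 0.101 CPM with BP and 5.92 ± 0.648 CPM with BP+Huaier, was called higher (edgeR adjusted p = 8.9e-04). Of 3 endothelial markers 2 stayed under 1 CPM and CDH5, at 19.0 ± 1.92 CPM with BP and 12.7 ± 1.69 CPM with BP+Huaier, was called lower (edgeR adjusted p = 0.03), with a sum of 17.6 to 21.1 CPM with BP and 11.9 to 14.7 CPM with BP+Huaier. The 3 acinar markers stayed under 1 CPM in every library. The part of these markers in the results was not tested, and in bulk samples fewer cells of a type and less RNA per cell cannot be told apart.

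All 42 genes passed the filter on low counts. With Huaier added, 7 of them rose: the pump subunit genes ATP6V0B, ATP6V1F and ATP6AP1, the cholesterol carrier genes NPC1 and NPC2, and the glycan-cleaving enzyme genes GLA and NEU1. The cation channel gene TPCN1 fell, and 34 did not pass the test (edgeR quasi-likelihood test, Benjamini-Hochberg adjusted p under 0.05 over all genes). The share called higher, 16.7%, was close to the 14.4% of all 15022 tested genes and the 16.6% of protein-coding genes, so this count does not set the list apart. The share called lower was 2.38%, beside 15.0% of all tested genes and 12.8% of protein-coding genes. In 13 of the 42 genes (31.0%) every BP+Huaier library lay above every BP library, as in 21.9% of all tested genes, and in 2 (4.76%) every one lay below, as in 24.9% of all tested genes. The median log2 fold change was 0.16 over the 42 genes and -0.02 over all tested genes. With libraries scaled by their size alone these medians were -0.10 and -0.28, and the listed genes with a log2 fold change above 0 numbered 18 in place of 32. Of all 15022 tested genes, 4701 were above 0 with that scaling in place of 7318.

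How many genes passed turned on single libraries. Without BP+Huaier 3, 21 of the 42 genes were called higher and 3 lower, where 28.8% and 31.0% of all tested genes were called in these directions, and 14 of the 21 had not passed with it. Without any other single library, 1 to 4 genes were called higher and 0 lower by edgeR (7 to 10 higher and 1 lower at an unadjusted p under 0.05), where 5.27% to 11.4% of all tested genes were called higher and 5.92% to 11.8% lower. At that unadjusted p, 2296 to 2863 of 15287 to 15657 tested genes were higher and 2516 to 3097 lower. The coefficient of variation was larger in BP+Huaier than in BP for 37 of the 42 genes. With a separate spread for each group (limma-voom), 9 genes (21.4%) were called higher and 3 (7.14%) lower. LAMP1 and PSAP were added to the former and ATP6V1A and ATP6V1C1 to the latter. That fit called 15.3% of all tested genes higher and 15.2% lower.

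**Figure D2:**
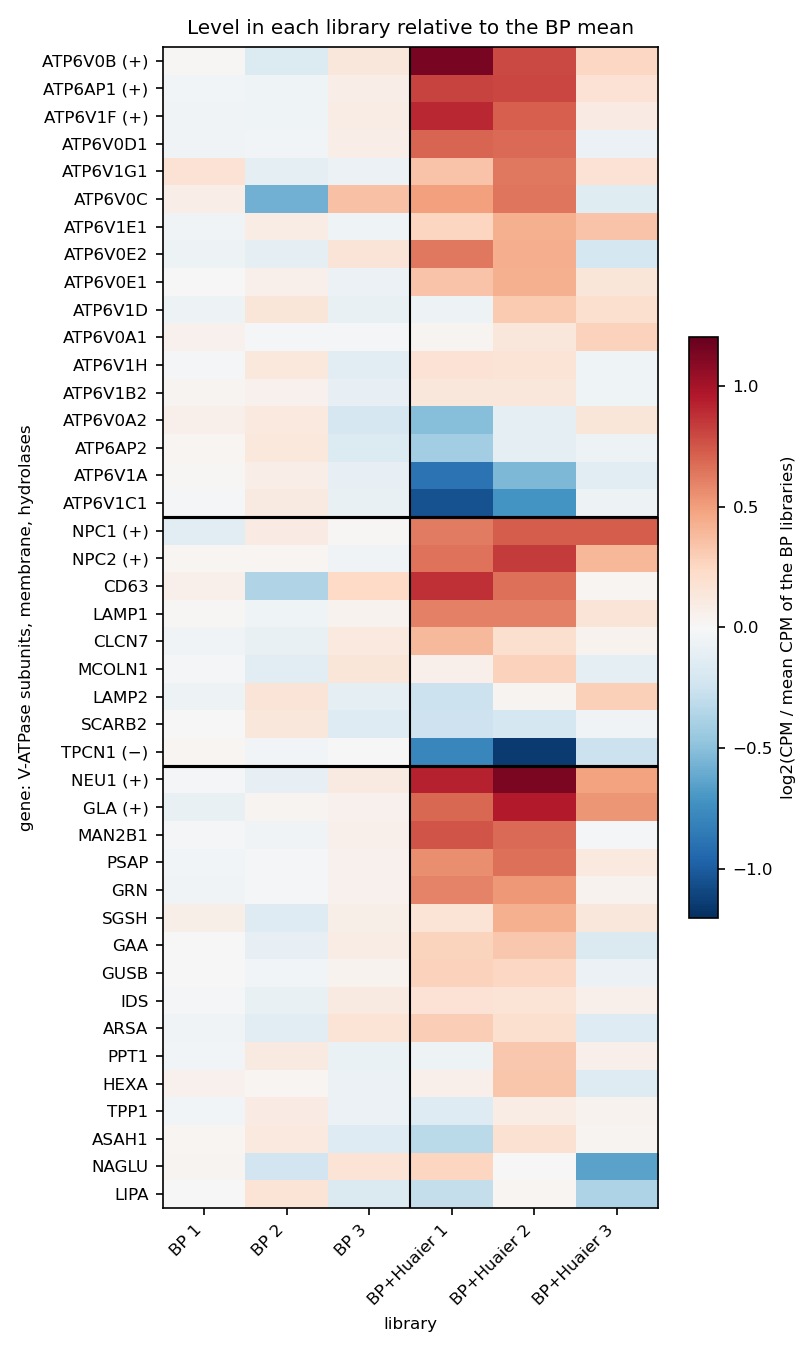
Level of each of the 42 genes (vertical axis, by role) in each library (horizontal axis) as log2 of its CPM over the mean CPM of BP; (+) and (−) mark genes called higher and lower. The strongest colours are in BP+Huaier 1 and 2, and for 22 genes BP+Huaier 3 lies between the BP mean and the mean of BP+Huaier 1 and 2.

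The summed counts of the 42 genes took a similar part of every library. They came to 6188, 6303 and 6159 unscaled CPM in BP 1, 2 and 3 and to 6218, 6574 and 6055 in BP+Huaier 1, 2 and 3, and the groups overlapped. After TMM scaling the sums were 5624, 5714 and 5696 CPM with BP and 7322, 7678 and 5839.9 CPM with BP+Huaier, a ratio of means of 1.22 in place of 1.01. Whether these transcripts as a whole were level or higher thus depended on the scaling, on which the count ratios between genes given below do not depend. Those ratios can still vary with the GC content of the paired genes, as given further below.

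Among the V0 genes, ATP6V0B, which encodes a proteolipid of the proton-carrying ring, rose 1.70-fold. It was at 78.3, 69.2 and 85.2 CPM with BP and 170.4, 134 and 92.4 CPM with BP+Huaier. All BP+Huaier libraries lay above all BP libraries, BP+Huaier 3 by the smallest margin. The log2 fold change of the gene (ENSG00000117410.14, GRCh38 chromosome 1, 43974487 to 43978295) was 0.77 ± 0.21 (SE, n = 3; edgeR adjusted p = 0.027). ATP6V0D1, which couples the ring to the rotor, was at 96.7, 97.2 and 105 CPM with BP and 162, 159.8 and 95.2 CPM with BP+Huaier. Its value in BP+Huaier 3 was at the BP level, and the gene did not pass the test with that library (log2 fold change 0.48 ± 0.20, edgeR adjusted p = 0.1) and passed without it (0.70, edgeR adjusted p = 2.44e-05).

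The remaining V0 genes did not pass. ATP6V0A1 and ATP6V0A2 encode forms of the large subunit through which protons enter and leave the ring, and with BP they stood at 5.75 and 0.921 CPM per kilobase of merged exons. ATP6V0A1 was at 62.9 ± 2.10 CPM with BP and 69.9 ± 5.92 CPM with BP+Huaier (SD, n = 3), and ATP6V0A2 at 15.8 ± 1.80 CPM with BP and 14.4 ± 3.18 CPM with BP+Huaier. The count ratio of ATP6V0A1 to ATP6V0A2 was 3.96, 3.58 and 4.46 with BP and 5.80, 4.73 and 4.36 with BP+Huaier, with overlapping groups. ATP6V0E1 and ATP6V0E2, forms of a small subunit of the same sector, had log2 fold changes of 0.31 ± 0.13 and 0.33 ± 0.21, and both passed without BP+Huaier 3 (edgeR adjusted p = 0.00278 and 0.00101). ATP6V0C, the other ring proteolipid in the list, was at only 4.27 ± 1.30 CPM with BP and 5.51 ± 1.46 CPM with BP+Huaier. It shared 862 of its exon bases (60.9%) with another annotated gene on the same strand, and how reads in shared bases were counted is unknown here, so its level is uncertain.

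Of the V1 genes only ATP6V1F passed, and ATP6V1A and ATP6V1C1 differed from it in direction. ATP6V1F, a small rotor subunit, was at 106, 105 and 116 CPM with BP and 204, 179 and 117 CPM with BP+Huaier. The groups did not overlap, but BP+Huaier 3 exceeded the highest BP library only slightly. ATP6V1F (ENSG00000128524.5, GRCh38 chromosome 7, 128862856 to 128865847) rose 1.53-fold, a log2 fold change of 0.61 ± 0.20 (SE, n = 3; edgeR adjusted p = 0.047). ATP6V1A, the catalytic subunit that hydrolyses ATP, was at 74.0, 77.1 and 68.3 CPM with BP and 39.7, 50.2 and 66.6 CPM with BP+Huaier. Every BP+Huaier library lay below BP, and the gene did not pass (log2 fold change -0.49 ± 0.19, edgeR adjusted p = 0.081), whereas it was called lower without BP+Huaier 3 (-0.69, edgeR adjusted p = 2.44e-04).

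ATP6V1C1, a stator subunit that joins V1 to V0, was at 40.9, 44.9 and 39.0 CPM with BP and 20.2, 25.3 and 39.8 CPM with BP+Huaier. It was low in BP+Huaier 1 and 2 and at the BP level in BP+Huaier 3, at -0.55 ± 0.23 on the log2 scale (edgeR adjusted p = 0.1) and at -0.86 without BP+Huaier 3 (edgeR adjusted p = 8.03e-05). The count ratio of ATP6V1F to ATP6V1A was 1.44, 1.36 and 1.70 with BP and 5.15, 3.58 and 1.76 with BP+Huaier. That of ATP6V0B to ATP6V1A was 1.06, 0.897 and 1.25 with BP and 4.29, 2.66 and 1.39 with BP+Huaier. In both ratios the groups did not overlap and BP+Huaier 3 lay just above BP. The ratio of ATP6V1F to ATP6V1C1 was 2.60, 2.33 and 2.98 with BP and 10.1, 7.08 and 2.94 with BP+Huaier. There the groups overlapped, with BP+Huaier 3 within the BP range. All count ratios given here are for pairs chosen after their values were seen and were not tested. ATP6V1E1 and ATP6V1G1, which form the peripheral stalks, had log2 fold changes of 0.35 ± 0.13 and 0.39 ± 0.16 with groups that did not overlap, and did not pass (edgeR adjusted p = 0.066 and 0.093). ATP6V1B2, which completes the catalytic head, ATP6V1D, a rotor subunit, and ATP6V1H, a regulatory subunit, had log2 fold changes of 0.08 ± 0.13, 0.16 ± 0.15 and 0.10 ± 0.14 and did not pass.

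The accessory genes differed from each other. ATP6AP1, a glycoprotein needed to assemble the pump, was at 181, 179 and 196 CPM with BP and 325, 323 and 209 CPM with BP+Huaier. The groups did not overlap, and the gene (ENSG00000071553.18, GRCh38 chromosome X, 154428633 to 154436516) rose 1.54-fold, a log2 fold change of 0.63 ± 0.18 (SE, n = 3; edgeR adjusted p = 0.034). ATP6AP2, also known as the (pro)renin receptor, was at 100.3 ± 10.2 CPM with BP and 87.7 ± 11.4 CPM with BP+Huaier, with overlapping groups (edgeR adjusted p = 0.34). The count ratio of ATP6AP1 to ATP6AP2 was 1.77, 1.63 and 2.20 with BP and 4.35, 3.50 and 2.17 with BP+Huaier, where BP+Huaier 3 was within the BP range. Of the 17 pump genes 3 were called higher and 0 lower by edgeR, with 7 higher and 2 lower at an unadjusted p under 0.05. At that unadjusted p, 3179 of all 15022 tested genes were higher and 3319 lower. DESeq2 called 4 pump genes higher and 0 lower, beside 18.4% and 16.2% of all tested genes. For limma-voom the pump genes had 2 higher and 0 lower calls, beside 14.1% and 16.7%. The calls of ATP6V0B, ATP6V1F and ATP6AP1 were each lost without any 1 of BP 1, 2 and 3 and BP+Huaier 1 and 2 (edgeR adjusted p from 0.0576 to 0.157) and with scaling by library size alone (0.0668, 0.127 and 0.0741). Those of ATP6V1F and ATP6AP1 were also lost among genes of at least 5 CPM (0.0733 and 0.0509), and that of ATP6V1F by limma-voom (0.0542). Without BP+Huaier 3 the pump genes had 8 higher and 2 lower calls, beside 28.8% and 31.0% of all tested genes. With library size alone they had 0 and 0 by edgeR (2 higher and 3 lower at an unadjusted p under 0.05). That scaling called 7.0% of all tested genes higher and 19.7% lower (1635 and 4785 genes at the unadjusted p). Over all alternatives the adjusted p ran from 1.2e-05 to 0.12 for ATP6V0B, from 9.11e-06 to 0.157 for ATP6V1F and from 3.5e-06 to 0.128 for ATP6AP1.

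**Figure D3:**
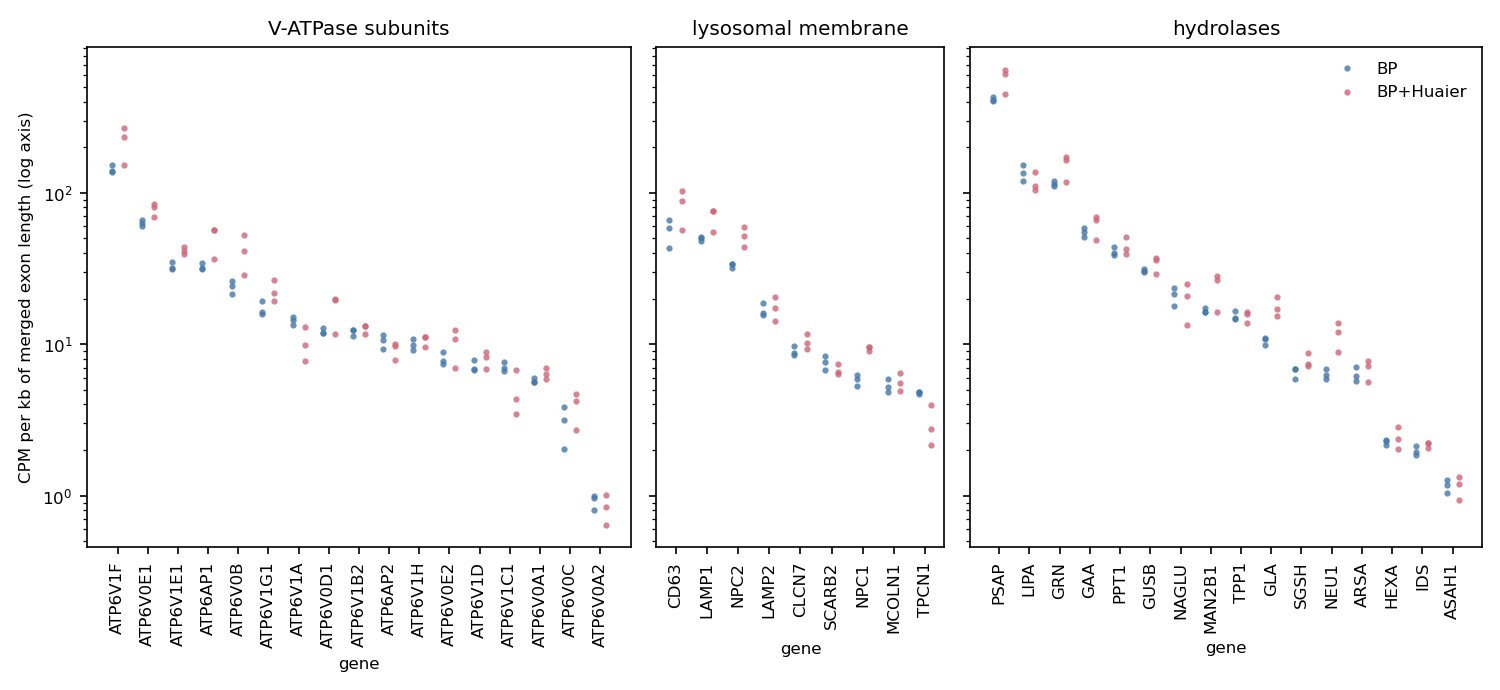
Level of each gene in each library as CPM per kilobase of merged exon length on a log axis, by role and ordered by the BP mean; points are libraries of BP (blue) and BP+Huaier (red). With BP, ATP6V1F was the highest pump gene at 143 and ATP6V0A2 the lowest at 0.921 CPM per kilobase, and PSAP was the highest of the 42 genes at 412.

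Both carriers of the lysosomal cholesterol exit route rose. NPC2, a soluble protein that takes up cholesterol in the lumen, was at 86.9, 86.9 and 82.9 CPM with BP and 134, 153 and 113 CPM with BP+Huaier. NPC1, the membrane protein that receives this cholesterol, was at 51.8, 60.7 and 57.1 CPM with BP and 86.9, 93.5 and 93.5 CPM with BP+Huaier. For both genes the groups did not overlap, and for NPC1 BP+Huaier 3 was as high as BP+Huaier 2. NPC1 (ENSG00000141458.13, GRCh38 chromosome 18, 23506184 to 23586506) rose 1.62-fold, a log2 fold change of 0.69 ± 0.13 (SE, n = 3; edgeR adjusted p = 0.0059). NPC2 (ENSG00000119655.11, GRCh38 chromosome 14, 74476192 to 74494177) rose 1.56-fold (0.64 ± 0.14 on the log2 scale; edgeR adjusted p = 0.013). Their count ratio, NPC1 to NPC2, was 0.596, 0.698 and 0.689 with BP and 0.651, 0.613 and 0.826 with BP+Huaier, with overlapping groups. The NPC1 call was lost when BP 1 was left out (edgeR adjusted p = 0.0507) and with library size alone (0.0569; range over alternatives 3e-06 to 0.0569). The NPC2 call was lost without any 1 BP library or BP+Huaier 2 (edgeR adjusted p from 0.0593 to 0.0646; range 2e-05 to 0.0646).

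TPCN1, a cation channel gene of endosomes and lysosomes, was the listed gene that fell, 1.60-fold. It was at 42.2, 40.8 and 41.9 CPM with BP and 24.2, 18.8 and 34.9 CPM with BP+Huaier. Every BP+Huaier library lay below every BP library, BP+Huaier 3 by the smallest margin. The log2 fold change of TPCN1 (ENSG00000186815.13, GRCh38 chromosome 12, 113221050 to 113298585) was -0.68 ± 0.21 (SE, n = 3; edgeR adjusted p = 0.04), and the call was lost without any 1 library other than BP+Huaier 3 (edgeR adjusted p from 0.0842 to 0.138; range 3.35e-05 to 0.138). The calcium channel gene MCOLN1 was at 21.0 ± 2.03 CPM with BP and 22.3 ± 2.98 CPM with BP+Huaier and the chloride-proton exchanger gene CLCN7 at 68.4 ± 5.33 CPM with BP and 79.3 ± 9.62 CPM with BP+Huaier, and neither passed (edgeR adjusted p = 0.72 and 0.28).

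The abundant membrane glycoprotein genes did not pass. The count ratio of LAMP1 to LAMP2, which encode the main proteins lining the lysosomal membrane, was 1.89, 1.55 and 1.99 with BP and 3.24, 2.66 and 1.64 with BP+Huaier. BP+Huaier 1 and 2 were above BP and BP+Huaier 3 within its range. LAMP1 was at 287, 274 and 292 CPM with BP and 432, 432 and 316 CPM with BP+Huaier, groups that did not overlap (log2 fold change 0.47 ± 0.16, edgeR adjusted p = 0.052). LAMP2 was at 152, 177 and 147 CPM with BP and 133, 162 and 193 CPM with BP+Huaier, with overlapping groups (log2 fold change 0.04 ± 0.17, edgeR adjusted p = 0.88). CD63, a tetraspanin of lysosomes and exosomes, was at 141, 105 and 159 CPM with BP and 248, 213 and 137 CPM with BP+Huaier, with BP+Huaier 3 within the BP range (edgeR adjusted p = 0.1; 2.89e-04 without that library). SCARB2, the receptor that carries glucocerebrosidase to lysosomes, was at 147 ± 15.2 CPM with BP and 131 ± 10.2 CPM with BP+Huaier (edgeR adjusted p = 0.37).

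Of the enzyme genes, NEU1 and GLA rose. NEU1, the sialidase that removes terminal sialic acids, was at 30.2, 28.4 and 32.9 CPM with BP and 58.0, 66.9 and 42.6 CPM with BP+Huaier. GLA, alpha-galactosidase A, which is deficient in Fabry disease, was at 61.6, 67.1 and 68.2 CPM with BP and 106, 127 and 95.0 CPM with BP+Huaier. For both genes each BP+Huaier library, BP+Huaier 3 included, was above each BP library. NEU1 (ENSG00000204386.12, GRCh38 chromosome 6, 31857659 to 31862905) rose 1.83-fold, the largest rise among the 42 genes, with a log2 fold change of 0.87 ± 0.18 (SE, n = 3; edgeR adjusted p = 0.0091). GLA (ENSG00000102393.14, GRCh38 chromosome X, 101393273 to 101408012) rose 1.66-fold (0.73 ± 0.15 on the log2 scale; edgeR adjusted p = 0.0076). Of the alternatives tried, the NEU1 call was lost only without BP 2 (edgeR adjusted p = 0.0542; range 4.47e-06 to 0.0542) and the GLA call only without BP 1 (0.0536; range 1.74e-05 to 0.0536). NEU1 counts over those of HEXA, a hexosaminidase subunit that acts on gangliosides, were 0.809, 0.774 and 0.960 with BP and 1.54, 1.47 and 1.31 with BP+Huaier. GLA counts over those of LIPA, the acid lipase, were 0.0931, 0.0904 and 0.116 with BP and 0.195, 0.188 and 0.185 with BP+Huaier. In both ratios the groups did not overlap, and BP+Huaier 3 lay near the other BP+Huaier libraries.

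PSAP, the precursor of the saposins that activate sphingolipid breakdown, was the most abundant of the 42 transcripts. It was at 1283, 1298 and 1358 CPM with BP and 1938, 2071 and 1422 CPM with BP+Huaier. The groups did not overlap, and the gene did not pass (log2 fold change 0.46 ± 0.17, edgeR adjusted p = 0.072; 0.62 and 1.28e-05 without BP+Huaier 3). GRN, the progranulin gene, was at 393, 400.0 and 419 CPM with BP and 609, 580.3 and 417 CPM with BP+Huaier. MAN2B1, lysosomal alpha-mannosidase, was at 87.8, 87.1 and 93.5 CPM with BP and 151, 143 and 88.2 CPM with BP+Huaier. In GRN and MAN2B1 the third BP+Huaier library lay within the BP range, and their log2 fold changes of 0.41 ± 0.17 and 0.51 ± 0.20 did not pass (edgeR adjusted p = 0.097 and 0.082), as they did without that library (4.84e-05 and 1.9e-05).

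The remaining 11 enzyme genes had log2 fold changes between -0.20 (LIPA) and 0.25 (SGSH), and none passed. They include the glycosidase genes GAA, GUSB and HEXA, the protease gene TPP1, the ceramidase gene ASAH1 and the thioesterase gene PPT1, and IDS, SGSH, NAGLU and ARSA, which act on sulfated glycans and lipids. TPP1 was at 99.9 ± 6.70 CPM with BP and 99.6 ± 8.92 CPM with BP+Huaier (SD, n = 3), and ASAH1 at 17.9 ± 1.72 CPM with BP and 17.7 ± 3.14 CPM with BP+Huaier. NAGLU was at 63.1, 52.4 and 69.2 CPM with BP and 73.6, 61.5 and 39.4 CPM with BP+Huaier, with BP+Huaier 3 the lowest of all libraries. IDS, at 18.3 ± 1.25 CPM with BP and 20.1 ± 0.874 CPM with BP+Huaier, shared 75.0% of its exon bases with another annotated gene on the same strand, so its level is uncertain. Of the 16 enzyme genes 2 were called higher and 0 lower by edgeR, with 5 higher and 0 lower at an unadjusted p under 0.05. At that unadjusted p, 3179 of all 15022 tested genes were higher and 3319 lower. DESeq2 called 4 enzyme genes higher and 0 lower (18.4% and 16.2% of all tested genes) and limma-voom 2 and 0 (14.1% and 16.7%). Without BP+Huaier 3 edgeR called 8 higher and 0 lower (28.8% and 31.0% of all tested genes). With library size alone it called 2 higher and 1 lower, LIPA (7.0% and 19.7% of all tested genes).

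Some of the genes that passed overlap genes on the opposite strand, and whether counting used strand is unknown here. ATP6V1F shared 20.6% of its exon bases with KCP, which had 110 counts over all libraries against 13256 for ATP6V1F. GLA shared 9.0% with RPL36A (494 counts against 8417), NPC1 6.4% with RMC1 (2150 against 7184) and NPC2 4.0% with ISCA2 (2157 against 10562).

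**Figure D4:**
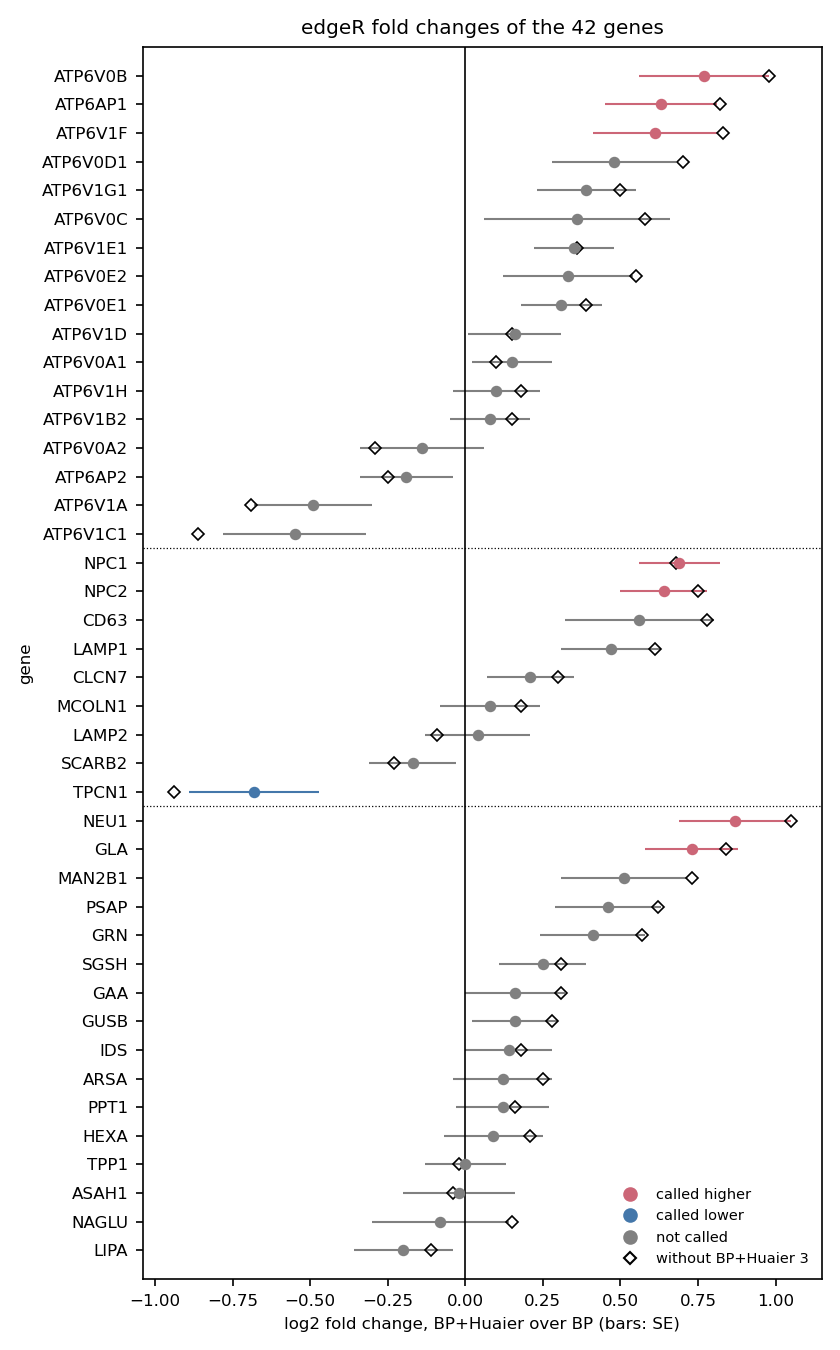
edgeR log2 fold changes of the 42 genes, BP+Huaier over BP, as points with bars of 1 SE, red where called higher, blue where called lower and grey where not called; open diamonds are the values without BP+Huaier 3. NEU1 has the highest point, 0.87, and TPCN1 the lowest, -0.68, and most diamonds lie farther from 0 than their points.

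The fold changes also varied with the GC content of transcripts. Over the 42 genes, which share libraries, Pearson's r of log2 fold change with GC content was 0.28 and Spearman's rho 0.38. The median GC content was 51.6% for the 7 genes that rose and 48% for the others. ATP6V1A and ATP6V1C1 had 40.6% and 39.7%, and ATP6V0B, ATP6V1F and ATP6AP1 had 56.5%, 54.3% and 55%. With the dependence on GC and length taken out of each library, r over the 42 genes was -0.37. Among these genes the correlation with GC content thus changed sign and was not removed. In that fit 12 genes were called higher and 4 lower, and 19.0% and 19.3% of the 14896 genes so tested were called in these directions. The 7 genes that rose and TPCN1 were called in that fit too. ATP6V0E1, ATP6V1E1, ATP6V1G1, LAMP1 and LAMP2 joined those called higher, LAMP2 at 0.33 on the log2 scale (edgeR adjusted p = 0.0147). ATP6V1A (-0.34, edgeR adjusted p = 0.0379), NAGLU (-0.51, edgeR adjusted p = 0.00499) and ARSA (-0.34, edgeR adjusted p = 0.024) joined those called lower, ARSA from 0.12 ± 0.16 with TMM scaling alone. LAMP1 (GC content 51.2%) was at 0.38 in that fit, near LAMP2 (37.7%), whereas with TMM scaling alone they were at 0.47 and 0.04. Of other pairs with count ratios, ATP6V0A1 and ATP6V0A2 were at 0.14 and 0.2, and NEU1 and HEXA at 0.75 and 0.35. Farther apart were ATP6AP1 and ATP6AP2 (0.43 and 0.04), GLA and LIPA (0.71 and -0.08), and ATP6V1F and ATP6V1A (0.59 and -0.34).

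**Figure D5:**
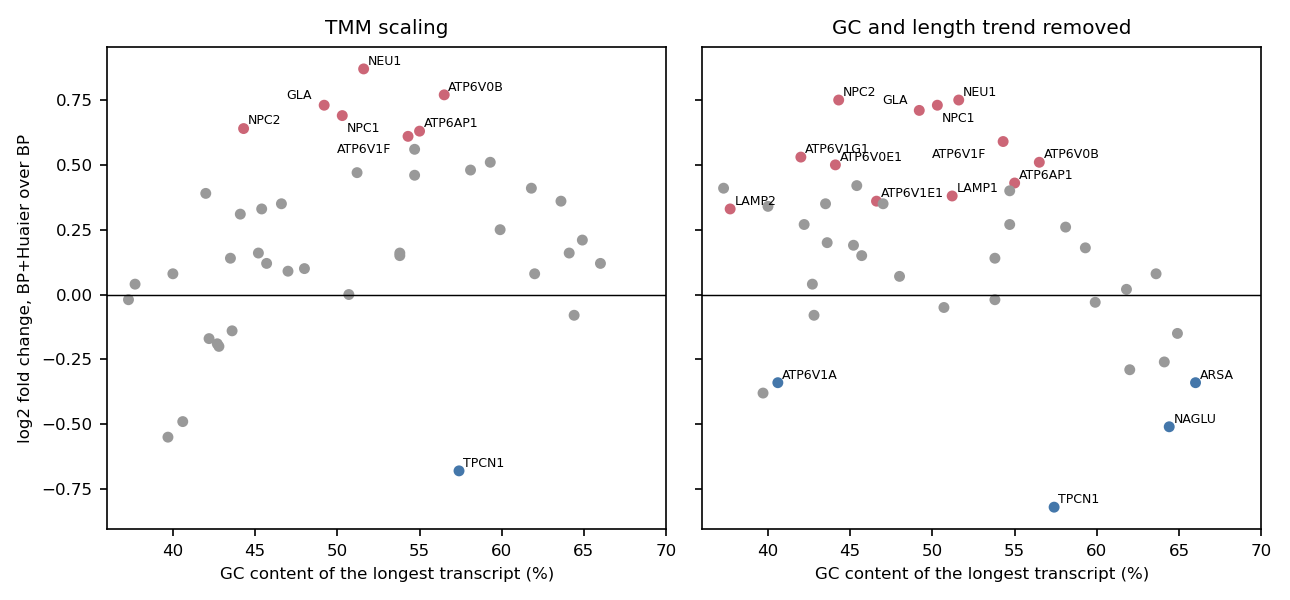
Log2 fold change of the 42 genes (BP+Huaier over BP) against the GC content of the longest transcript in percent, with TMM scaling (left) and with GC and length dependence taken out (right); red and blue points are genes called higher and lower. NEU1, NPC1, NPC2 and GLA are red in both panels and TPCN1 is lowest in both, and r is 0.28 on the left and -0.37 on the right.

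Genes of the same organelle outside the 42 went both ways, and the counts that follow are to be read beside the 14.4% of all tested genes called higher and the 15.0% called lower. Without BP+Huaier 3 these shares were 28.8% and 31.0%, and with library size alone 7.0% and 19.7%. They were 18.4% and 16.2% by DESeq2, 14.1% and 16.7% by limma-voom, and 19.0% and 19.3% with GC and length dependence taken out. At an unadjusted p under 0.05 in the main fit, 3179 of 15022 genes were higher and 3319 lower. Of 14 tested genes of other V-ATPase subunits and assembly factors 3 fell and 0 rose by edgeR (4 lower and 0 higher at an unadjusted p under 0.05; DESeq2 and limma-voom each called 4 lower and 0 higher), with a median log2 fold change of -0.29. These 3 are 21.4% of the list, and 6 were called lower without BP+Huaier 3, 1 to 2 without any other single library, and 6 (with 1 higher) with GC and length dependence taken out. DMXL1, part of a complex that reassembles the pump, was at 39.7, 43.2 and 41.3 CPM with BP and 16.9, 20.2 and 27.6 CPM with BP+Huaier and fell 1.92-fold (edgeR adjusted p = 0.008). NCOA7, which binds the pump, was at 34.0, 34.1 and 31.3 CPM with BP and 14.6, 17.1 and 26.2 CPM with BP+Huaier and fell 1.71-fold (edgeR adjusted p = 0.027). For both, BP+Huaier 3 lay between the other BP+Huaier libraries and BP. The third was ATP6V1E2, at under 5 CPM, and the restricted isoform genes ATP6V0A4 and ATP6V1G3 had 0 counts in every library. Of 12 cathepsin and legumain genes 2 rose, CTSL 2.39-fold and CTSA 1.39-fold (edgeR adjusted p = 8.9e-04 and 0.029), and CTSO, at under 5 CPM, fell; 7 were called higher and 2 lower without BP+Huaier 3, 1 and 0 to 1 without any other single library, and 1 and 1 with library size alone. ATP6V1E2 and CTSO fall outside the rule for named genes and were chosen after their values were seen.

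Of 27 tested genes of other hydrolases and their activators 3 rose (11.1%) and 2 fell (7.41%). Without BP+Huaier 3 the calls were 9 higher and 5 lower, without any other single library 1 higher and 0 to 3 lower, with library size alone 1 higher and 8 lower, and with GC and length dependence taken out 2 higher and 5 lower. PLA2G15, a lysosomal phospholipase, rose 1.89-fold and HYAL2, a hyaluronidase, 1.59-fold (edgeR adjusted p = 0.0063 and 0.044), and ACP2, an acid phosphatase, fell 1.58-fold (0.017). SMPD1 (acid sphingomyelinase, higher) and SUMF1 (the activator of sulfatases, lower) also passed and, like TPCN2, SLC38A9 and CTNS below, are named after their values were seen. Of 25 tested genes of the lysosomal membrane 2 rose, PIP4P1, a phosphoinositide phosphatase (2.39-fold, edgeR adjusted p = 0.0019), and SLC17A5, the exporter of the sialic acid that NEU1 releases (1.66-fold, edgeR adjusted p = 0.0042). SLC17A5 was at 37.1, 39.9 and 38.0 CPM with BP and 62.3, 62.2 and 66.8 CPM with BP+Huaier, with all BP+Huaier libraries well above BP. In that list 4 fell: HGSNAT, which acetylates heparan sulfate (1.78-fold, edgeR adjusted p = 0.0084), TPCN2, the paralog of TPCN1, SLC38A9, an amino acid transporter and sensor, and CTNS, the cystine exporter. The calls in that list were 8 higher and 5 lower without BP+Huaier 3, 2 and 1 to 3 without any other single library, 2 and 6 with library size alone, and 4 and 7 with GC and length dependence taken out.

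Of 13 genes of the mannose 6-phosphate route, which sorts hydrolases to lysosomes, 2 rose, the adaptor subunit genes AP1S1 (1.64-fold) and AP1M1 (1.54-fold; edgeR adjusted p = 0.029 and 0.022). In that list 0 fell by edgeR, and 6 were higher and 2 lower at an unadjusted p under 0.05. DESeq2 called 5 higher and 1 lower, beside 18.4% and 16.2% of all tested genes. The limma-voom calls were 2 higher and 1 lower, beside 14.1% and 16.7%. Without BP+Huaier 3 edgeR called 6 of these genes higher and 2 lower, without any other single library 0 to 1 and 0, and with library size alone 0 and 0 (2 higher and 4 lower at an unadjusted p under 0.05). Of 14 tested genes of the TFEB and TFE3 factors and of nutrient sensing at the lysosome 4 rose and 0 fell by edgeR (6 higher and 1 lower at an unadjusted p under 0.05). DESeq2 called 6 higher and 0 lower, limma-voom 4 and 0, and edgeR 6 and 0 with GC and length dependence taken out. Without BP+Huaier 3, 8 of these genes were called higher and 3 lower, without any other single library 1 to 2 and 0, and with library size alone 1 and 1. TFE3 was at 112, 103 and 126 CPM with BP and 242, 259 and 175 CPM with BP+Huaier. TFEB was at 8.90, 9.69 and 9.33 CPM with BP and 22.7, 17.9 and 11.3 CPM with BP+Huaier. For both factors the groups did not overlap, and BP+Huaier 3 was the nearest to BP (edgeR adjusted p = 0.0051 and 0.026). LAMTOR4, part of the complex that anchors mTORC1 signalling at the lysosome, rose 1.69-fold (edgeR adjusted p = 0.037) with BP+Huaier 3 within the BP range, and FLCN, the folliculin gene, also passed and was named after its values were seen.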

How the data were processed

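The submitters' processing notes list GRCh38, featureCounts 1.6.1, HISAT2 2.1.0 and fastp 0.20.0; settings for strand, multi-mapped reads and shared exons were not found in those notes or the labels. The values deposited by the authors were whole-number counts per gene without normalization. Of 60604 genes (44 second copies on the Y chromosome and 1 broken entry left out), filterByExpr kept 15022. BP+Huaier was compared with BP in R 4.3.3 by edgeR 4.0.16 (TMM scaling, robust quasi-likelihood test, group as the sole term, Benjamini-Hochberg over all genes, threshold 0.05). CPM values are TMM-scaled.

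Alternatives were DESeq2 1.42.0, limma 3.58.1 (voom, with 1 spread or a spread per group), other scalings, filters and thresholds, a block for replicate numbers, omission of each library, and removal of a per-library dependence on GC and length, after which TMM factors were estimated anew, a step added once a first result had been seen. GENCODE release 29 gave GC content for 99.2% of tested genes. Scripts were tested on simulated counts. Libraries of a group differed by 3.74 to 75.7 times the sampling variance (chi-square per degree of freedom). Each was counted as 1 sample, although this spread may be technical and does not show that they were separate cultures. Promoters were matched by symbol to RefSeq, and figures drawn with matplotlib 3.10.9.

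The 42 genes and the other lists were chosen with earlier results of these data known. Named were all 42 and, from each other list, the called genes of at least 5 CPM on average with the 3 largest absolute changes.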

Additional observations from a re-analysis of the deposited data

How the results depend on the processing

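Over all tested genes 2160 were called higher and 2246 lower, and of the 42 genes 7 and 1. Library size alone gave 1051 higher over all genes and, of the 42, 3 higher and 2 lower. DESeq2 called 11 of the 42 higher (26.2%), beside 18.4% of all tested genes. In limma-voom with a spread for each group 3 were lower (7.14%), beside 15.2%. No filter on low counts gave 12 and 2 (28.6% and 4.76%), beside 9.09% and 9.63% of the 31218 genes then tested. Genes of at least 5 CPM gave 1363 lower over all genes. An adjusted p under 0.01 left 826 and 810 over all genes and 3 and 0 of the 42. With GC and length dependence taken out, 12 of the 42 were higher and 4 lower, beside 19.0% and 19.3% of the genes so tested, and ARSA turned to -0.34. Leaving out 1 library each gave 810 to 4452 higher and 909 to 4793 lower over all genes and 1 to 21 and 0 to 3 of the 42, the highest without BP+Huaier 3. Fewer libraries enter these fits; the cause of the other differences was not tested. The replicate numbers share no stated origin. Same-numbered libraries correlated at 0.01, -0.06 and -0.28, and differently numbered ones at -0.26 to 0.26. These values are from deviations from means of 3 libraries and cannot decide whether same-numbered libraries share an origin. The main test used no pairing. A block on the replicate numbers gave 1357 higher over all genes and 4 of the 42. In that fit ATP6V0B, ATP6V1F and ATP6AP1 were at an edgeR adjusted p of 0.0502, 0.092 and 0.0755. It called 0 of the 13 sorting genes (3 higher and 2 lower at an unadjusted p under 0.05). With 3 libraries a group and a common biological coefficient of variation of 18.1%, small changes were not detectable.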
